A study of Mus musculus with 14 samples.

Results

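Control mouse epidermis and control cultured keratinocytes, the cells that build that epidermis, were compared gene by gene. The members were the p63alpha libraries of the 2 systems: 4 of epidermis and 3 of keratinocytes, 7 of the 14 libraries analysed. All 7 are labelled Trp63-Ex13fl/fl (p63alpha), a genotype in which exon 13 of Trp63 is floxed and no Cre is named. The other 7 libraries, labelled KRT14-Cre; Trp63-Ex13fl/fl (p63beta), have lost that exon through a Cre driven by the KRT14 promoter and were used only as a separate set for a repeat of the comparison. Tissue and cells both came from newborn mice. The epidermis was lifted off the dermis after a night in trypsin, and the cultures were primary cells obtained from such epidermis, filtered and grown in low calcium medium with chelated serum. No label says whether each library is a separate animal or culture, so every p-value here measures only the spread between these libraries, which may be technical.

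Epidermis is a layered epithelium. Basal cells sit on the basement membrane, hold it through hemidesmosomes and integrins, and divide; cells that leave this layer stop dividing, switch from keratins 5 and 14 to keratins 1 and 10, and at last cross-link proteins under the membrane and release lipids to make the cornified barrier. Low calcium medium is used to keep cultured keratinocytes in a basal, proliferating state, because calcium is one of the signals for this program. Whole epidermis holds all layers together with hair follicle cells, melanocytes, Langerhans cells and T cells, so fewer cells of a type and less RNA per cell cannot be told apart in these bulk libraries.

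The epidermis table holds read numbers estimated per gene with Salmon and the keratinocyte table holds reads counted with featureCounts, so the kind of sample and the counting tool cannot be told apart for any gene. Only differences of at least 4-fold are therefore called here, with an adjusted p under 0.05 in edgeR's quasi-likelihood test. Fold changes are given on the log2 scale as edgeR fitted them, with their standard error (SE) after the sign ±, and a positive value means a higher level in epidermis. Levels are in TPM, a share of all transcripts corrected for gene length, over the 23089 genes that both tables list by symbol, with each library rescaled to the same total. Lists of 4 values belong to the epidermis libraries EP07, EP08, EP09 and WT3, in that order, and lists of 3 to the keratinocyte libraries R1, R2 and R3. The TPM scale and the fitted scale differ by a shift: the median of all genes tested was -0.66 as a log2 ratio of TPM and -0.02 after edgeR's scaling, and fold changes are read against the latter. The gap between the scales also varies from gene to gene. Over 11156 genes tested with a mean of at least 1 TPM in both systems it lay within 1 log2 unit of its median of 0.699 for 98.6%. Of the 246 genes named below with reads in both systems, Rora lay further from their median.

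Of 13898 genes tested, 1724 (12.4%) were called higher in epidermis and 981 (7.06%) higher in keratinocytes, 19.5% in all. The list counts below are read against these shares. Scaled by TPM and tested with limma, with a pseudocount of 1 TPM, the split was 714 and 1021. The TPM of the 4 epidermis libraries and of the 3 keratinocyte libraries did not overlap for 9702 genes (69.8%), so a lack of overlap alone is common here and is given below only as a description of single genes. Totals per library ranged from 21290068 to 34144606 reads in epidermis and from 20688027 to 30066041 in culture. The 20 most abundant genes held 20.6 to 29.2% of the TPM of an epidermis library and 11.4 to 14.1% of that of a keratinocyte library. Library WT3 stood apart from the other epidermis libraries: its column name carries a tag that the names of the keratinocyte libraries carry too, and EP07, EP08 and EP09 carry another tag. With WT3 as the only epidermis library, a comparison within the shared tag that assumes WT3 varies like the keratinocyte libraries, 1490 genes were called higher in epidermis and 967 higher in keratinocytes. With the 3 libraries of the other tag the counts were 1612 and 915. Counts of list members that this choice, or the loss of any 1 library, moved by over 1.5 times are given beside the list, with the number tested where members fell below the filter on low counts. Of the genes named below, Acta1, Bst2, Col1a1, Cyr61, Id3, Isg15, Itga2, Klk6, Krt8, Krt13, Lhx2, Lyz2, Nqo1, Per2, Tgfbi and Usp18 lost their call within the shared tag. Krt14, Krt16, Lama3, Notch3, Rrm2, Rxra and Tgfbr2 gained one there.

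**Figure D1:**
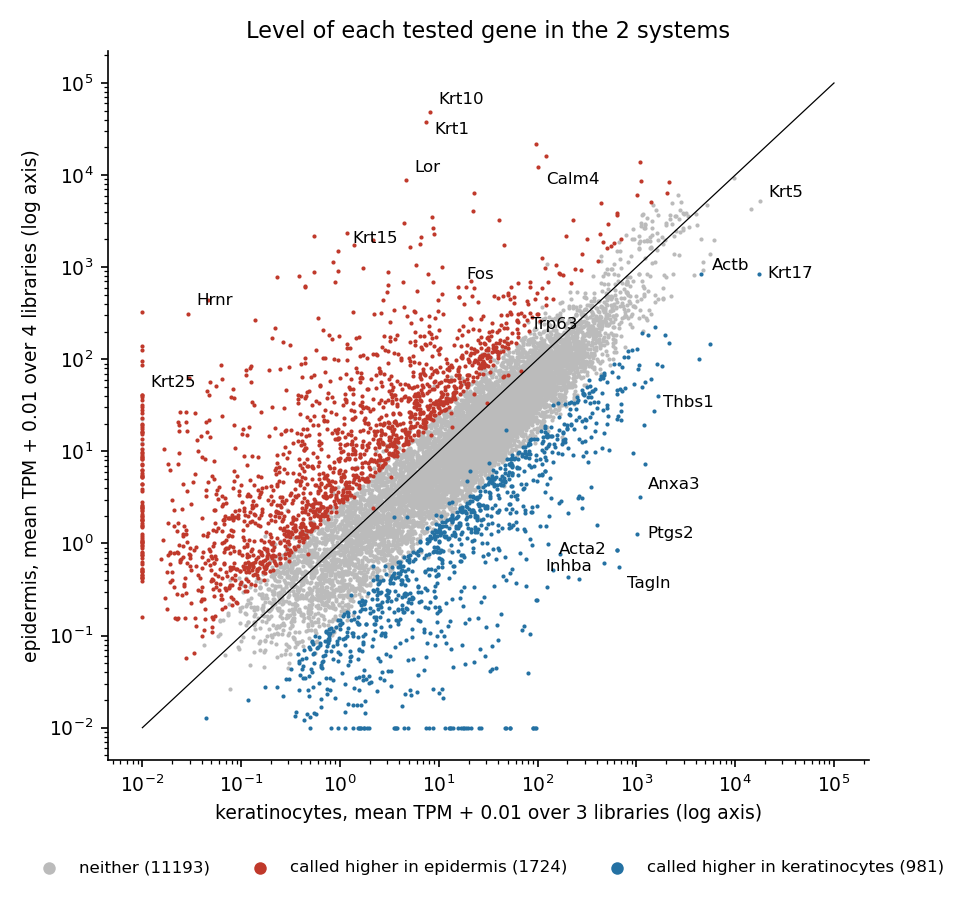
Mean TPM of each tested gene in keratinocytes (horizontal axis, 3 libraries) and in epidermis (vertical axis, 4 libraries), both with a small constant added and on log axes, coloured by call. Krt10 and Krt1 lie at the top of the epidermis axis with means under 10 TPM in culture, and the 981 genes called higher in keratinocytes lie below the diagonal.

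The most abundant keratinocyte messages were not the same ones in the 2 systems. The 10 highest means in epidermis were those of Krt10, Krt1, Stfa3, BC100530, Krtdap, Calm4, Eef1a1, Lor, Dmkn and Lgals7, and in culture those of Krt5, Krt17, Krt14, Eef1a1, Anxa2, Krt6a, Anxa1, Rplp1, Actb and Tmsb4x. Among these, 1 gene, the translation factor gene Eef1a1, stood in both. Krt5, a keratin of the basal layer, ranked 15 in epidermis and 1 in culture, and its partner Krt14 ranked 22 and 3. Krt10, the acidic keratin of the layers above, ranked 1 in epidermis and 9046 in culture, and its partner Krt1 ranked 2 and 9222. The defining keratins of the labelled cell type, Krt5 and Krt14, were at 1693 TPM or more in all 7 libraries.

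Trp63 encodes p63, the transcription factor that stratified epithelia depend on and the gene whose exon 13 the series manipulates. Its level was 180.2, 156, 263 and 84.98 TPM in epidermis and 74.7, 68.3 and 68.4 TPM in culture. Every epidermis library lay above every keratinocyte library, with WT3 the closest, and the difference passed the adjusted p but not the 4-fold limit (log2 fold change 1.56 ± 0.28, edgeR adjusted p = 0.0017). These gene totals do not separate the isoforms.

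Basal keratinocyte genes were divided: of 20 tested, 3 were called higher in epidermis and 6 higher in keratinocytes, with a median log2 fold change of -1.17 against -0.02 for all genes. Krt5 stood at 5032, 6836, 6157 and 3054 TPM in epidermis and 13210, 21160 and 18610 TPM in culture, and Krt14 at 4295, 6466, 4565 and 1693 TPM in epidermis and 10910, 17050 and 15280 TPM in culture. All 3 cultures were higher than all 4 epidermis libraries for both keratins, yet the fitted differences were -1.08 and -1.16, under the limit. Krt14 shares 28% of its sequence words with other genes, and the counts of the cultures leave out reads that map to several places. The hemidesmosome collagen gene Col17a1 lay in the same range (log2 fold change -0.79 ± 0.28).

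Krt15 was the exception among basal keratins. This keratin, often used to mark quiet basal cells and the hair follicle bulge, stood at 1113, 1028, 2715 and 1758 TPM in epidermis and 8.45, 5.897 and 1.09 TPM in culture. It ranked 102 in epidermis and 9904 in culture (log2 fold change 8.99 ± 0.83, edgeR adjusted p = 4.9e-05), so cultures that were rich in Krt5 and Krt14 had almost no Krt15. The secreted BMP and WNT inhibitor gene Sostdc1 went the same way, with 52.2, 104, 54.01 and 50.3 TPM in epidermis and 2.17, 9.13 and 4.98 TPM in culture (log2 fold change 4.21 ± 0.497). Lgals7, the keratinocyte galectin, was the third called member, at 8423 TPM on average in epidermis and 2115 TPM in culture. Of the 6 members called higher in culture, 4 were integrin genes and 1 was Pdpn, a membrane glycoprotein linked to migrating keratinocytes, at 4.497, 7.48, 6.64 and 3.902 TPM in epidermis and 175, 64.1 and 92.1 TPM in culture.

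**Figure D2:**
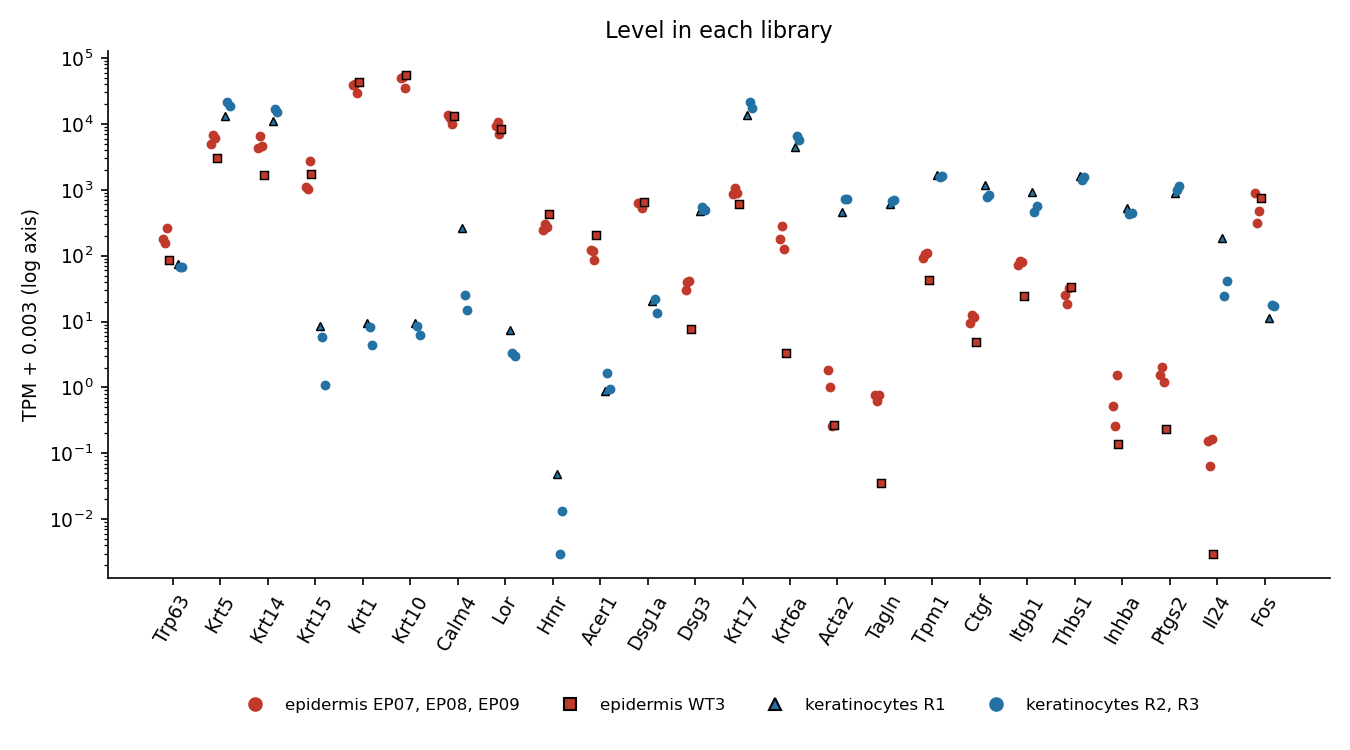
TPM with a small constant added (vertical log axis) in each of the 7 libraries for single genes along the horizontal axis, coloured by system, with a square for WT3, a triangle for R1 and circles for the others. Krt10, Krt1 and Lor sit at 7066 TPM or more in all 4 epidermis libraries and under 10 TPM in the 3 cultures, while Tagln and Acta2 sit under 2 TPM in epidermis and at 458 TPM or more in culture.

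Early suprabasal genes mark cells that have just left the basal layer. Of 20 tested, 17 were called higher in epidermis and 0 higher in keratinocytes, and the median log2 fold change was 5.30. Krt10 stood at 49780, 50930, 35370 and 55850 TPM in epidermis and 9.36, 8.697 and 6.28 TPM in culture (log2 fold change 13.25 ± 0.49, edgeR adjusted p = 1.3e-06). Krt1 stood at 39070, 39720, 29830 and 43720 TPM in epidermis and 9.65, 8.38 and 4.42 TPM in culture (log2 fold change 13.05 ± 0.56, edgeR adjusted p = 1.9e-06). The libraries of each system lay within a 3-fold range of each other, and the 2 systems were far apart. Other members were far less separated. Krtdap, a secreted peptide of the spinous layer, was at 14000, 13960, 12140 and 15970 TPM in epidermis and 1858, 788 and 607 TPM in culture (log2 fold change 3.87 ± 0.44), so it was still among the abundant messages of the cultures. Sbsn and Dmkn, secreted proteins coded beside it, were also called, with log2 fold changes of 3.59 and 3.26. The desmosomal cadherin genes of the upper layers, Dsg1a and Dsc1, differed by 5.82 and 6.75 on the log2 scale. Dsg1a shares 41% of its sequence words with other genes. Calm4, a calmodulin-like protein of differentiating keratinocytes, was at 13440, 12330, 10090 and 13150 TPM in epidermis. In culture it was at 259.6, 25.7 and 14.7 TPM, and R1 held 10-fold more than either of the other cultures.

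Cornified envelope genes, which code for the cross-linked proteins of the dead outer layer, were called higher in epidermis in 36 of 57 and higher in keratinocytes in 1, with a median log2 fold change of 4.05; 22 of the 57 share sequence with near copies. Lor, loricrin, the bulk protein of the envelope, was at 9197, 10580, 7066 and 8349 TPM in epidermis and 7.51, 3.33 and 3.04 TPM in culture (log2 fold change 11.57 ± 0.53, edgeR adjusted p = 2.3e-06). Hrnr, a member of the filaggrin family, was at 242, 301, 276 and 436 TPM in epidermis and 0.0458, 0 and 0.0104 TPM in culture. Asprv1, the protease that processes filaggrin, was high in both systems, at 6100 TPM on average in epidermis and 1022 TPM in culture (log2 fold change 3.25 ± 0.38). Among the late cornified envelope genes, Lce1m was at 3482, 4214, 3023 and 3359 TPM in epidermis and 19.6, 2.54 and 3.401 TPM in culture (log2 fold change 9.22 ± 0.86). R1 was the highest of the 3 cultures for Lor, Lce1m and Asprv1. The 1 member called the other way was Sprr2k, a small proline-rich protein gene, at 1.305, 3.55, 0.813 and 0.197 TPM in epidermis and 41.5, 26.5 and 21.8 TPM in culture, and within the shared tag 3 of 56 members were. Flg was not analysed here because the 2 tables do not share it.

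The sequence just before the transcription start was read for Krt10, Lor and Krtdap, which stand for these lists, from RefSeq's table on build GRCm38.p6. Each window is the 250 bases upstream, written 5′ to 3′ on the gene's own strand, and capitals mark matches to TATAAA (the TATA box) and TGANTCA (the AP-1 motif). Krt10 lies on the minus strand at chr11:99389365-99389614, Lor on the minus strand at chr3:92083143-92083392 and Krtdap on the plus strand at chr7:30787655-30787904, all in the gene's upstream flank.
Krt10: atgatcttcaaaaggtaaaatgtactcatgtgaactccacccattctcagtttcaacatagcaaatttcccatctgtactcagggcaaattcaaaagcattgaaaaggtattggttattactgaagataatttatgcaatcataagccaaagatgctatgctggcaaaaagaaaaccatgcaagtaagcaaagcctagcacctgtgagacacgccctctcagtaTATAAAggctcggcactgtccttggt
Lor: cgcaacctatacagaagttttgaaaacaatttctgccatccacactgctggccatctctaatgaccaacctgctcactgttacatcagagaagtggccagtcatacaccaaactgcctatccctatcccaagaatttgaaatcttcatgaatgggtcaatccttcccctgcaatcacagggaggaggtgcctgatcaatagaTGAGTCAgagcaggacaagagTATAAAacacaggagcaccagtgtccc
Krtdap: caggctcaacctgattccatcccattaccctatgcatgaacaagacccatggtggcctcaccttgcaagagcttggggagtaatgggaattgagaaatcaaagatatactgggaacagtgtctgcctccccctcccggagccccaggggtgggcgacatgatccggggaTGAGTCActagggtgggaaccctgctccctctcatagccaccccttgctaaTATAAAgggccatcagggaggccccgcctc
The TATA box began 26 bases before the start in Krt10, 27 in Lor and 30 in Krtdap. The AP-1 motif began 48 bases before the start in Lor and 81 in Krtdap. With both strands searched, TATAAA was in 38.5% and TGANTCA in 30.8% of 52 windows of cornified envelope genes. Near copies share sequence with 22 of the 57 genes of that list, so these windows may not be independent of each other. In the 17 windows of early suprabasal genes, the list of Krt10 and Krtdap, TATAAA was in 2 and TGANTCA in 7. Over the 13992 windows of all genes tested the shares were 6.98% and 4.92%, and over the 1598 windows of genes called higher in epidermis they were 11.6% and 8.20%. Barrier lipid genes, which were called higher in epidermis as often, held TATAAA in 1 and TGANTCA in 3 of 33 windows. A match is a run of letters in this window, and no match says nothing of the rest of the gene.

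Enzymes and transporters of barrier lipids were called higher in epidermis in 23 of 36 and higher in keratinocytes in 0 (median log2 fold change 3.18). They cover the steps from very long fatty acids to the ceramides bound to the envelope. Alox12b, the lipoxygenase that opens the way to bound ceramides, was at 306, 315, 301 and 391 TPM in epidermis and 10.5, 4.03 and 2.73 TPM in culture (log2 fold change 6.57 ± 0.54, edgeR adjusted p = 2.8e-05). Acer1, an alkaline ceramidase of the epidermis, was at 120.3, 119, 87.4 and 209 TPM in epidermis and 0.883, 1.65 and 0.955 TPM in culture. For both genes the lowest epidermis library lay far above the highest culture, and the cultures lay within 4-fold of each other. Elovl4 and Elovl1, elongases of very long fatty acids, were lower in culture by less, with log2 fold change 3.14 ± 0.36 and log2 fold change 3.02 ± 0.27. Lipk, an acid lipase of the granular layer, differed by 8.03 and Dgat2, the enzyme of triglyceride synthesis, by 4.83. The secreted phospholipase gene Pla2g2f was at 671, 727, 501 and 925 TPM in epidermis and 55.99, 4.38 and 2.81 TPM in culture, again with R1 the highest culture. Sult2b1, the sulfotransferase that makes cholesterol sulfate, did not reach the 4-fold limit (log2 fold change 0.83 ± 0.199).

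Kallikreins, the serine proteases that loosen the cornified layer, and their inhibitors were divided: 9 of 19 were called higher in epidermis and 2 higher in keratinocytes (median log2 fold change 2.29). Klk5, which starts the cascade, was at 549, 666, 514 and 670.3 TPM in epidermis and 46.2, 12.8 and 9.18 TPM in culture (log2 fold change 5.35 ± 0.61). Klk7 was at 1139, 1141, 895 and 1135 TPM in epidermis and 1289, 325 and 179.6 TPM in culture, so R1 reached the epidermis level and R2 and R3 did not, and Klk7 was not called (log2 fold change 1.54 ± 0.596, edgeR adjusted p = 0.054) unless R1 was left out, when its log2 fold change was 2.76. Klk8 stood at 291 TPM on average in epidermis and 342 TPM in culture. Klk10 went the other way, at 83.7, 84.2, 102 and 47.6 TPM in epidermis and 1540, 846 and 732 TPM in culture (log2 fold change -3.12 ± 0.28). Klk6 was the second member called higher in culture, and its call rested on single libraries: its log2 fold change of -3.28 became -0.73 without R1, where it reached 1059 TPM. Without EP07 (16 tested), WT3 or R1, or within the shared tag (17 tested), 1 member was called higher in culture. The inhibitor genes Serpinb12 and Spink5 were higher in epidermis, with log2 fold changes of 11.29 and 2.45.

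Desmosome genes were divided. Of 15 tested, 4 were called higher in epidermis and 3 higher in keratinocytes (median log2 fold change 0.65). Sequence was shared with other genes in 3 of the 15. Dsg3 and Dsc2, cadherins found in lower layers and in simple epithelia, were higher in culture: Dsg3 was at 30.3, 39.8, 40.6 and 7.702 TPM in epidermis and 473, 546 and 497 TPM in culture (log2 fold change -3.41 ± 0.42), and Dsc2 at 2.85, 5.71, 11.7 and 1.65 TPM in epidermis and 107, 126 and 102 TPM in culture (log2 fold change -3.68 ± 0.51). Pkp2, the plakophilin of simple epithelia and heart, was at 0.174, 0.254, 0.702 and 0.187 TPM in epidermis and 26.6, 19.4 and 21.7 TPM in culture (log2 fold change -5.45 ± 0.43). The plaque genes lay close: Pkp1 was at 1302, 1261, 1265 and 1251 TPM in epidermis and 1211, 1310 and 1160 TPM in culture (log2 fold change 0.82 ± 0.17), and neither Jup, Dsp, Pkp3 nor Perp passed the 4-fold limit.

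Tight and adherens junction genes were called higher in epidermis in 3 of 21 and higher in culture in 4 (median log2 fold change -0.94). The first count lies near the share over all genes tested, 12.4%. Cldn1, the claudin the skin barrier depends on, did not pass (224, 191, 346 and 186 TPM in epidermis and 489.7, 377 and 363 TPM in culture; log2 fold change -0.07 ± 0.22, edgeR adjusted p = 0.811). Cldn3 was at 0.388, 1.05, 1.89 and 0.592 TPM in epidermis and 119, 143 and 124 TPM in culture (log2 fold change -6.52 ± 0.398), and Cldn4 at 237, 180.3, 129 and 187 TPM in epidermis and 1798, 2144 and 1925 TPM in culture (log2 fold change -2.72 ± 0.26). Cldn7, a claudin of simple epithelia, also was called higher in culture (log2 fold change -5.04). Cldn23 and Tjp3, a claudin and a scaffold of tight junctions, were higher in epidermis, at 68.97 against 6.48 TPM and 47.3 against 1.27 TPM as means of each system. The adherens junction genes Cdh1 and Ctnnb1 differed by -1.24 and 0.25, inside the limit.

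Keratins 6, 16 and 17 are induced in wounded or stressed epidermis and in culture. Of the 5 genes tested, 2 were called higher in culture and 0 higher in epidermis (1 without WT3). Krt17 was at 862, 1062, 879.5 and 602 TPM in epidermis and 13500, 21380 and 17700 TPM in culture (log2 fold change -3.74 ± 0.22, edgeR adjusted p = 5.7e-06), with no overlap and close agreement within each system. Krt6a was at 178, 279, 127 and 3.32 TPM in epidermis and 4474, 6609 and 5633 TPM in culture, so WT3 lay further below the other epidermis libraries than these lay below the cultures (log2 fold change -4.63 ± 0.998). Krt6a, Krt16 and Krt6b share 51%, 52% and 57% of their sequence words with other genes. In the p63beta libraries the log2 fold change of Krt6a was -0.99 and not called. Krt16 was at 1147, 1422, 645 and 48.2 TPM in epidermis and 3417, 4629 and 3425 TPM in culture, again lowest in WT3, and was not called (log2 fold change -1.66 ± 0.76, edgeR adjusted p = 0.093). Krt6b, a near copy of Krt6a, was at 234, 337, 56.7 and 1.57 TPM in epidermis and 104, 23.1 and 13.2 TPM in culture, with the epidermis libraries on both sides of the cultures, and was called higher in epidermis without WT3 (2.80).

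Keratins of simple epithelia were divided, with 2 of 8 called higher in epidermis and 3 higher in culture. Krt18 was at 0.806, 2.39, 1.74 and 0.826 TPM in epidermis and 111, 34.7 and 40.01 TPM in culture (log2 fold change -4.84 ± 0.51), and Krt7 at 16.2, 22.7, 34.8 and 14.5 TPM in epidermis and 305, 228 and 197 TPM in culture (log2 fold change -2.85 ± 0.26). Krt8, the partner of Krt18, was the third, and its call was lost without R1. Krt23 was the larger difference on the other side, at 306, 298, 359.6 and 424 TPM in epidermis and 6.15, 2.95 and 1.44 TPM in culture (log2 fold change 7.298 ± 0.54). The second one, Krt13, lost its call without EP08, EP09, R1, R2 or R3.

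The S100 genes, calcium-binding proteins of which many lie in the epidermal differentiation complex, were called higher in culture in 4 of 14 and higher in epidermis in 0. S100a6, linked to proliferating cells, was at 98.1, 161, 109 and 37.5 TPM in epidermis and 4291, 3937 and 4609 TPM in culture (log2 fold change -5.03 ± 0.37, edgeR adjusted p = 1.5e-05). S100a7a, the mouse psoriasin, was at 0.577, 0.805, 4.54 and 0.243 TPM in epidermis and 263, 46.98 and 56.1 TPM in culture (log2 fold change -6.04 ± 0.96). S100a11, S100a14 and S100a16 were abundant in both systems, with log2 fold changes between 0.12 and 0.29 that did not pass. S100a11 shares 49% of its sequence words with other genes.

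Genes of the actin cytoskeleton and of the serum response moved to the culture side: 18 of 35 were called higher in culture and 0 higher in epidermis, and the median log2 fold change was -2.01. Serum response factor and its actin-sensing partner drive many of them. Tagln, the actin-bundling transgelin, was at 0.767, 0.6095, 0.755 and 0.0326 TPM in epidermis and 609.7, 677 and 697 TPM in culture (log2 fold change -9.66 ± 0.52, edgeR adjusted p = 4.0e-06). Acta2, smooth muscle actin, was at 1.83, 1.01, 0.254 and 0.269 TPM in epidermis and 458, 737 and 725 TPM in culture (log2 fold change -8.297 ± 0.66, edgeR adjusted p = 2.3e-05). Their means ranked 204 and 211 in culture and 12804 and 12237 in epidermis, with no overlap between the systems. Tpm1, a tropomyosin of stress fibres, was at 91.3, 108, 111 and 43.00 TPM in epidermis and 1665, 1553 and 1600 TPM in culture (log2 fold change -4.53 ± 0.26), and Anxa3, a membrane-binding annexin, at 2.48, 4.23, 3.37 and 2.65 TPM in epidermis and 1140, 1025 and 1095 TPM in culture (log2 fold change -7.77 ± 0.197). The cytoplasmic actin genes were closer. Actb was at 924 TPM on average in epidermis and 4736 TPM in culture (log2 fold change -1.66). Actg1 was at 1645 and 1410 TPM (log2 fold change 0.91). Actb and Actg1 share 24% and 39% of their sequence words with other genes, and the culture counts leave out reads that map to several places. Of the 35 list members, 5 share sequence with other genes.

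Targets of YAP and TEAD, the factors that answer to cell spreading and stiffness, were called higher in culture in 9 of 25 and higher in epidermis in 0 (median log2 fold change -1.46). Ctgf, a matrix-associated growth factor, was at 9.37, 12.5, 11.7 and 4.903 TPM in epidermis and 1166, 787 and 831 TPM in culture (log2 fold change -5.93 ± 0.28, edgeR adjusted p = 2.5e-06). Cyr61, its relative, was at 70.00, 48.2, 34.1 and 28.5 TPM in epidermis and 1364, 349 and 419 TPM in culture (log2 fold change -3.28 ± 0.51), with R1 the highest culture. Axl, a receptor kinase, and Amotl2, a YAP-binding scaffold, differed by -3.86 and -2.25 on the log2 scale. Ajuba and F3 lay on the same side without passing the limit, at -1.19 and -1.46.

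Upstream windows of the same kind are given for Acta2 and Cyr61, which stand for these 2 lists, and for Myl9, a myosin light chain gene of the actin list that was chosen for its motif after the values were seen. Myl9 was at 2.94, 3.09, 3.76 and 0.456 TPM in epidermis and 125, 74.6 and 93.1 TPM in culture (log2 fold change -4.75 ± 0.497). Capitals mark GGAATG (the TEAD motif, on either strand), CCWWWWWWGG (the CArG box bound by serum response factor) and the TATA box. W stands for A or T. Acta2 lies on the minus strand at chr19:34255374-34255623, Myl9 on the plus strand at chr2:156775214-156775463 and Cyr61 on the minus strand at chr3:145649986-145650235, all on GRCm38.p6 as RefSeq gives it.
Acta2: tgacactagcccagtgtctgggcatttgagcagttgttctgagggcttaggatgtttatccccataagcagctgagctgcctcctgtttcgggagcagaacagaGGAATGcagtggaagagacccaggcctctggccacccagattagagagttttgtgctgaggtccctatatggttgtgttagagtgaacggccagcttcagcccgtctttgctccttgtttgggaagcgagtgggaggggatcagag
Myl9: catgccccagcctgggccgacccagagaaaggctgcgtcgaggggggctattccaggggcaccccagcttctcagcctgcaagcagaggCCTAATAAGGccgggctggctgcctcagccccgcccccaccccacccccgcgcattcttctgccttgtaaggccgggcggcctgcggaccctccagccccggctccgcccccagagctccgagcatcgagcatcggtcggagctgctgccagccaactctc
Cyr61: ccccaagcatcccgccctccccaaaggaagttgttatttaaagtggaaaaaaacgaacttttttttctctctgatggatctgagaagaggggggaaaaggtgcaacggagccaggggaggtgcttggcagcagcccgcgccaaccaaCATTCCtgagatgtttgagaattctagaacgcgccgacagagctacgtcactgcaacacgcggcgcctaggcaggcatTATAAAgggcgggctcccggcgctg
The Acta2 window held the TEAD motif 146 bases before the start, the Myl9 window the CArG box at 161 bases, and the Cyr61 window the TATA box at 25 and the TEAD motif, on the other strand, at 103. Near matches were neither marked nor counted. Such are ccctatatgg and ccttgtttgg in the Acta2 window, which each differ from CCWWWWWWGG in a single letter. The exact CArG box was in 18.8% of 32 windows of the actin list and 1.22% of those of all genes tested. The TEAD motif was in 10 of 20 windows of the YAP list and 11.2% of those of all genes tested. Among genes called higher in culture, 921 windows held them in 2.17% and 15.5%. The YAP list was drawn up from known targets, some of which are known through such motifs.

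Integrin genes were called higher in culture in 9 of 20 and higher in epidermis in 0 (1 within the shared tag). Itgb4, the hemidesmosome integrin, was at 59.8, 62.1, 80.2 and 22.2 TPM in epidermis and 407, 526 and 575 TPM in culture (log2 fold change -2.48 ± 0.32, edgeR adjusted p = 2.7e-04). Itgb1 was at 72.5, 82.4, 79.4 and 24.7 TPM in epidermis and 925, 455 and 561 TPM in culture (log2 fold change -2.61 ± 0.36), and Itga3, its laminin-binding partner, at 41.8, 48.9, 65.5 and 15.4 TPM in epidermis and 514, 354 and 465 TPM in culture (log2 fold change -2.67 ± 0.35). Itga5, the fibronectin receptor, and Itgb6, an integrin of wounded epithelium that activates latent TGF-beta, were both under 6 TPM in every epidermis library. In culture they were at 75.6, 43.1 and 47.6 and at 102, 75.7 and 84.2 TPM, with log2 fold changes of -3.02 and -4.69. Itga2, the collagen receptor, was at 2.01, 3.61, 2.96 and 1.52 TPM in epidermis and 144, 25.2 and 42.4 TPM in culture (log2 fold change -4.08 ± 0.56). WT3 was the lowest epidermis library for all 6, and its levels lay on the side away from the cultures.

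The ligands were less uniform, with main counts not far from the shares over all genes tested, 12.4% and 7.06%. Basement membrane genes were called higher in epidermis in 5 of 32 and higher in culture in 4 (9 within the shared tag), with a median log2 fold change of -0.02, that of all genes. Lama3 and Lamb3, chains of laminin 332, differed by -1.96 and -1.26 and did not pass, though Lama3 did without EP08, EP09, R2 or R3 (-2.01 to -2.14). Col18a1, a collagen of basement membranes, was at 38.9 TPM on average in epidermis and 326 TPM in culture (log2 fold change -2.41 ± 0.27). Smoc2 and Egfl6, secreted proteins of this zone, were higher in epidermis, with log2 fold changes of 5.53 and 5.53.

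Genes of the provisional matrix and its remodelling, active in wounds, were called higher in culture in 18 of 42 and higher in epidermis in 5 (2 within the shared tag), with a median log2 fold change of -1.50. Thbs1, thrombospondin, was at 25.1, 18.4, 32.7 and 33.7 TPM in epidermis and 1617, 1395 and 1537 TPM in culture (log2 fold change -4.98 ± 0.31, edgeR adjusted p = 6.6e-06). Timp3, a metalloprotease inhibitor, was at 25.3, 23.9, 22.6 and 6.35 TPM in epidermis and 883, 1540 and 1170 TPM in culture (log2 fold change -5.23 ± 0.43). Plau, urokinase, differed by -2.37. Mmp9, a gelatinase, was at 0.692, 0.901, 0.0763 and 0.0154 TPM in epidermis and 485, 45.2 and 83.8 TPM in culture, with R1 the highest culture (log2 fold change -8.16 ± 1.17). Ecm1, a matrix protein of differentiated layers, and Tgfbi were called the other way, with log2 fold change 2.93 ± 0.16 and log2 fold change 2.65 ± 0.48.

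Cytokine and antimicrobial genes were called higher in culture in 16 of 32 and higher in epidermis in 6 (median log2 fold change -2.07). Ptgs2, the inducible cyclooxygenase, was at 1.53, 2.03, 1.21 and 0.232 TPM in epidermis and 889.5, 997 and 1129 TPM in culture (log2 fold change -8.96 ± 0.59, edgeR adjusted p = 9.8e-06), and it ranked 132 in culture. Il24 was at 0.1496, 0.0608, 0.161 and 0 TPM in epidermis and 188, 24.4 and 40.6 TPM in culture, with R1 over 4-fold above the others. Il1rl1, the receptor for interleukin 33, was at 0.0276, 0.0449, 0.0745 and 0.009000 TPM in epidermis and 36.9, 8.72 and 9.78 TPM in culture (log2 fold change -8.600 ± 0.73). Cxcl16 differed by -3.001. On the other side, Il18, a cytokine stored in the epidermis, was at 181, 246, 166 and 245 TPM in epidermis and 11.5, 12.9 and 5.87 TPM in culture (log2 fold change 4.89 ± 0.37). Cxcl14, a chemokine of healthy epidermis, was at 503, 478, 801 and 236 TPM in epidermis and 60.2, 48.8 and 41.7 TPM in culture (log2 fold change 3.96 ± 0.35). Il1r2, the decoy receptor for interleukin 1, also was higher in epidermis (log2 fold change 4.19).

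Interferon response genes were called higher in culture in 17 of 35 and higher in epidermis in 0, with a median log2 fold change of -1.94, but this count depended on single libraries. Without R1 it was 10 (with 1 called higher in epidermis) and within the shared tag 2, and DESeq2 called 11 and gave no adjusted p for the other 6. Isg15, a ubiquitin-like protein, was at 3.698, 1.08, 3.25 and 4.42 TPM in epidermis and 355, 29.7 and 25.3 TPM in culture (log2 fold change -4.93 ± 1.01, edgeR adjusted p = 0.0034), and Usp18, which removes it, at 0.295, 0.108, 0.429 and 0.519 TPM in epidermis and 87.6, 10.7 and 9.36 TPM in culture. R1 exceeded R2 and R3 by over 8-fold for both, and all 3 cultures exceeded all 4 epidermis libraries. Bst2, which tethers virus particles to cells, was at 8.77, 3.66, 8.32 and 15.5 TPM in epidermis and 449, 117 and 117 TPM in culture (log2 fold change -4.11 ± 0.66). Irf9, which carries the signal, did not pass the limit (log2 fold change -1.01).

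Among EGF receptor genes, ligands and feedback genes, 3 of 25 were called higher in epidermis and 6 higher in culture (median log2 fold change -0.34). Over all genes tested the shares were 12.4% and 7.06%, so the epidermis count lies near its share. The receptor gene Egfr did not pass (26.4, 24.8, 27.6 and 18.5 TPM in epidermis and 135, 99.98 and 101 TPM in culture; log2 fold change -1.61 ± 0.16, edgeR adjusted p = 7.0e-05). Among its ligands, Epgn, epigen, was at 1.29, 4.05, 7.12 and 0.693 TPM in epidermis and 174, 338 and 279 TPM in culture (log2 fold change -5.79 ± 0.65), while Btc, betacellulin, was at 60.1, 79.5, 62.7 and 86.9 TPM in epidermis and 9.63, 3.53 and 3.07 TPM in culture (log2 fold change 4.497 ± 0.47). Nrg1, a ligand of the related receptors, was higher in culture (log2 fold change -4.81 ± 0.801), as were the feedback phosphatase gene Dusp4 and Phlda1 (-4.46 and -3.101). Fgfr3 and Spry1 were higher in epidermis (3.86 and 2.36).

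In the TGF-beta, activin and BMP list 5 of 33 were called higher in epidermis (1 within the shared tag, 3 without EP08) and 4 higher in culture. Over all genes tested the shares were 12.4% and 7.06%. The 4 higher in culture included an activin subunit together with antagonists of this family. Inhba, which forms activin A, was at 0.521, 0.254, 1.52 and 0.136 TPM in epidermis and 536, 427 and 451 TPM in culture (log2 fold change -9.099 ± 0.55, edgeR adjusted p = 6.1e-06). Fst, follistatin, which binds activin, was at 42.6, 65.2, 42.4 and 8.63 TPM in epidermis and 1737, 1559 and 1678 TPM in culture (log2 fold change -4.58 ± 0.499), and WT3 was the lowest epidermis library for both. Nog, noggin, which binds BMPs, was at 0.323, 0.854, 1.44 and 0.0264 TPM in epidermis and 30.9, 25.5 and 57.7 TPM in culture (log2 fold change -5.303 ± 0.76). Bmp2 was at 45.2, 47.7, 33.8 and 16.8 TPM in epidermis and 9.19, 2.81 and 7.38 TPM in culture (log2 fold change 3.698 ± 0.46). The receptor genes Tgfbr2 and Bmpr1a did not pass (-1.76 and -0.14).

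Epidermal transcription factors were called higher in epidermis in 9 of 38 and higher in culture in 3, with a median log2 fold change of 1.15. Rora, an orphan nuclear receptor, was at 59.3, 61.8, 55.1 and 52.1 TPM in epidermis and 2.61, 2.57 and 2.62 TPM in culture, with little spread within either system (log2 fold change 7.97 ± 0.19, edgeR adjusted p = 3.0e-07). The size of this difference depended on the scale: as a ratio of mean TPM it was 4.46 on the log2 scale. Pou2f3 was at 195, 198, 126 and 196 TPM in epidermis and 9.59, 6.43 and 3.504 TPM in culture (log2 fold change 5.52 ± 0.43), and Klf4, which the barrier depends on, at 1035, 749.7, 765 and 755 TPM in epidermis and 183, 192 and 168 TPM in culture (log2 fold change 2.93 ± 0.22). Zfp750, Klf5 and Hopx did not pass, with log2 fold changes of 1.02, 0.72 and 0.35. The members called higher in culture included Id3 and Fosl1, which lay just past the limit (-2.12 and -2.02). Of the 3, 1 was called without EP08, 1 without EP09 and 0 without R1.

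Immediate early genes, which respond within minutes to handling and growth factors, were called higher in epidermis in 5 of 29 and higher in culture in 3 (5 within the shared tag). The main p63alpha counts lie not far from the shares over all genes tested, 12.4% and 7.06%. In the p63beta libraries the counts were 11 and 2. Fos was at 898, 312, 479 and 747 TPM in epidermis and 11.5, 17.6 and 17.5 TPM in culture (log2 fold change 6.04 ± 0.53, edgeR adjusted p = 3.6e-05). Fosb was at 39.1, 11.6, 15.2 and 52.9 TPM in epidermis and 2.82, 1.42 and 1.52 TPM in culture (log2 fold change 4.81 ± 0.73). For both genes the 4 epidermis libraries spread over almost 3-fold or more and all lay above the cultures. Jun and Junb did not pass, with log2 fold change 0.41 ± 0.43 and log2 fold change 0.64 ± 0.404. Ier3 and Gadd45b, which respond to stress, were higher in culture (-3.88 and -3.24).

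Notch pathway genes were called higher in epidermis in 3 of 21 and higher in culture in 1. These counts lie near the shares over all genes tested, 12.4% and 7.06%. The receptor genes Notch1 and Notch3 did not pass (-1.01 and 1.42). The ligand gene Jag1 was at 21.01, 23.2, 18.5 and 13.95 TPM in epidermis and 196, 219 and 239 TPM in culture (log2 fold change -2.75 ± 0.16, edgeR adjusted p = 4.7e-06). The targets and modulators Nrarp and Lfng were higher in epidermis, with log2 fold change 2.47 ± 0.37 and log2 fold change 3.96 ± 0.57, and Hes1 did not pass (-0.59). WT3 was well below the other epidermis libraries for Lfng, at 8.78 TPM.

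In the retinoid list 5 of 23 were called higher in epidermis and 3 higher in culture. Rbp2, which carries retinol in cells, was at 372, 330.1, 319.9 and 447 TPM in epidermis and 5.66, 3.54 and 3.95 TPM in culture (log2 fold change 6.82 ± 0.34). Rarres1 was at 126 TPM on average in epidermis and 0.562 TPM in culture. Rdh12, which handles retinal, was at 134 and 21.4 TPM. Aldh1a3, which makes retinoic acid, went the other way, at 0.526, 1.55, 0.828 and 0.143 TPM in epidermis and 278, 128 and 94.7 TPM in culture (log2 fold change -7.12 ± 0.65, edgeR adjusted p = 4.7e-05). The receptor genes Rarg and Rxra stayed within the limit (0.83 and 1.74).

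Hair follicle regulators were called higher in epidermis in 16 of 32 (10 of 30 within the shared tag) and higher in culture in 6. Shh, the signal of hair buds, was at 22.5, 24.5, 14.04 and 8.303 TPM in epidermis and 0.183, 0.0576 and 0.0414 TPM in culture (log2 fold change 8.16 ± 0.57, edgeR adjusted p = 1.2e-05), and Edar, the ectodysplasin receptor, at 17.7, 27.1, 14.2 and 7.16 TPM in epidermis and 0.133, 0.2297 and 0.4503 TPM in culture (log2 fold change 6.65 ± 0.54). Ptch1, a receptor and target of Shh, was at 65.8, 97.9, 45.3 and 26.4 TPM in epidermis and 13.2, 11.7 and 11.5 TPM in culture (log2 fold change 2.99 ± 0.36). Lhx2, a factor of follicle progenitors, differed by 3.12, and WT3 was the lowest epidermis library for all 4. Sox9, a factor of the outer root sheath, was higher in culture, at 18.4, 26.7, 21.8 and 5.38 TPM in epidermis and 165, 233 and 199.6 TPM in culture (log2 fold change -2.77 ± 0.39), and so was Wnt10a, at 21.1, 27.2, 38.3 and 11.8 TPM in epidermis and 212, 198 and 224 TPM in culture (log2 fold change -2.47 ± 0.26).

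Keratins of hair and of the inner root sheath were called higher in epidermis in 14 of 15, and in 7 without R2 or without R3; DESeq2 called 7 and gave no adjusted p for the other 7. They were high in one library: Krt71 was at 14.02, 3.04, 167 and 5.78 TPM in epidermis and 0.135, 0.0353 and 0.0508 TPM in culture. Krt27 was at 11.9, 3.28, 145 and 4.25 TPM in epidermis and in culture had 2 reads in all, a ratio of 999 with a 95% exact interval of 276 to 8256 that covers counting error only. EP09 thus held over 10 times the level of any other epidermis library for both. Of the 23 hair keratins in both tables, 15 passed the filter on low counts. Those near 0 in culture could pass only through epidermis, so the share called is not free of the filter. Sebaceous gland markers followed in EP09 as well. They were called higher in epidermis in 10 of 12, and their summed TPM was 362 to 1031 in epidermis and 30.8 to 72.1 in culture. Awat1, a wax synthase, was at 13.4, 10.1, 33.5 and 7.203 TPM in epidermis with no read in culture, at least 301-fold higher, counted against a floor of 3 reads over the 3 cultures. Krt79, a keratin of the follicle opening and gland duct, was at 442, 389, 773 and 295 TPM in epidermis and 33.1, 10.96 and 4.27 TPM in culture (log2 fold change 5.55 ± 0.72).

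Glucocorticoid response genes were called higher in epidermis in 7 of 15 and higher in culture in 0 (1 within the shared tag or without EP08). Tsc22d3 was at 48.6, 14.4, 281 and 64.1 TPM in epidermis and 3.096, 5.68 and 6.17 TPM in culture (log2 fold change 4.66 ± 0.96, edgeR adjusted p = 0.0035), and Fkbp5 at 52.5, 48.9, 157 and 67.2 TPM in epidermis and 15.4, 7.21 and 8.29 TPM in culture (log2 fold change 3.93 ± 0.49). EP09 was the highest library for both. The metallothionein genes Mt1 and Mt2, which glucocorticoids and metals induce, were at 306 and 211 TPM on average in epidermis and at 48.7 and 22.1 TPM in culture. Circadian clock genes were called higher in epidermis in 5 of 19 (3 within the shared tag) and higher in culture in 0. Per1 was at 67.6, 21.97, 95.4 and 50.8 TPM in epidermis and 9.54, 15.99 and 14.6 TPM in culture (log2 fold change 2.89 ± 0.47), and the epidermis libraries spread over 4-fold, as they did for Per2 (10.8, 2.58, 12.2 and 0.8797 TPM). Time of day of collection is not in the labels.

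**Figure D3:**
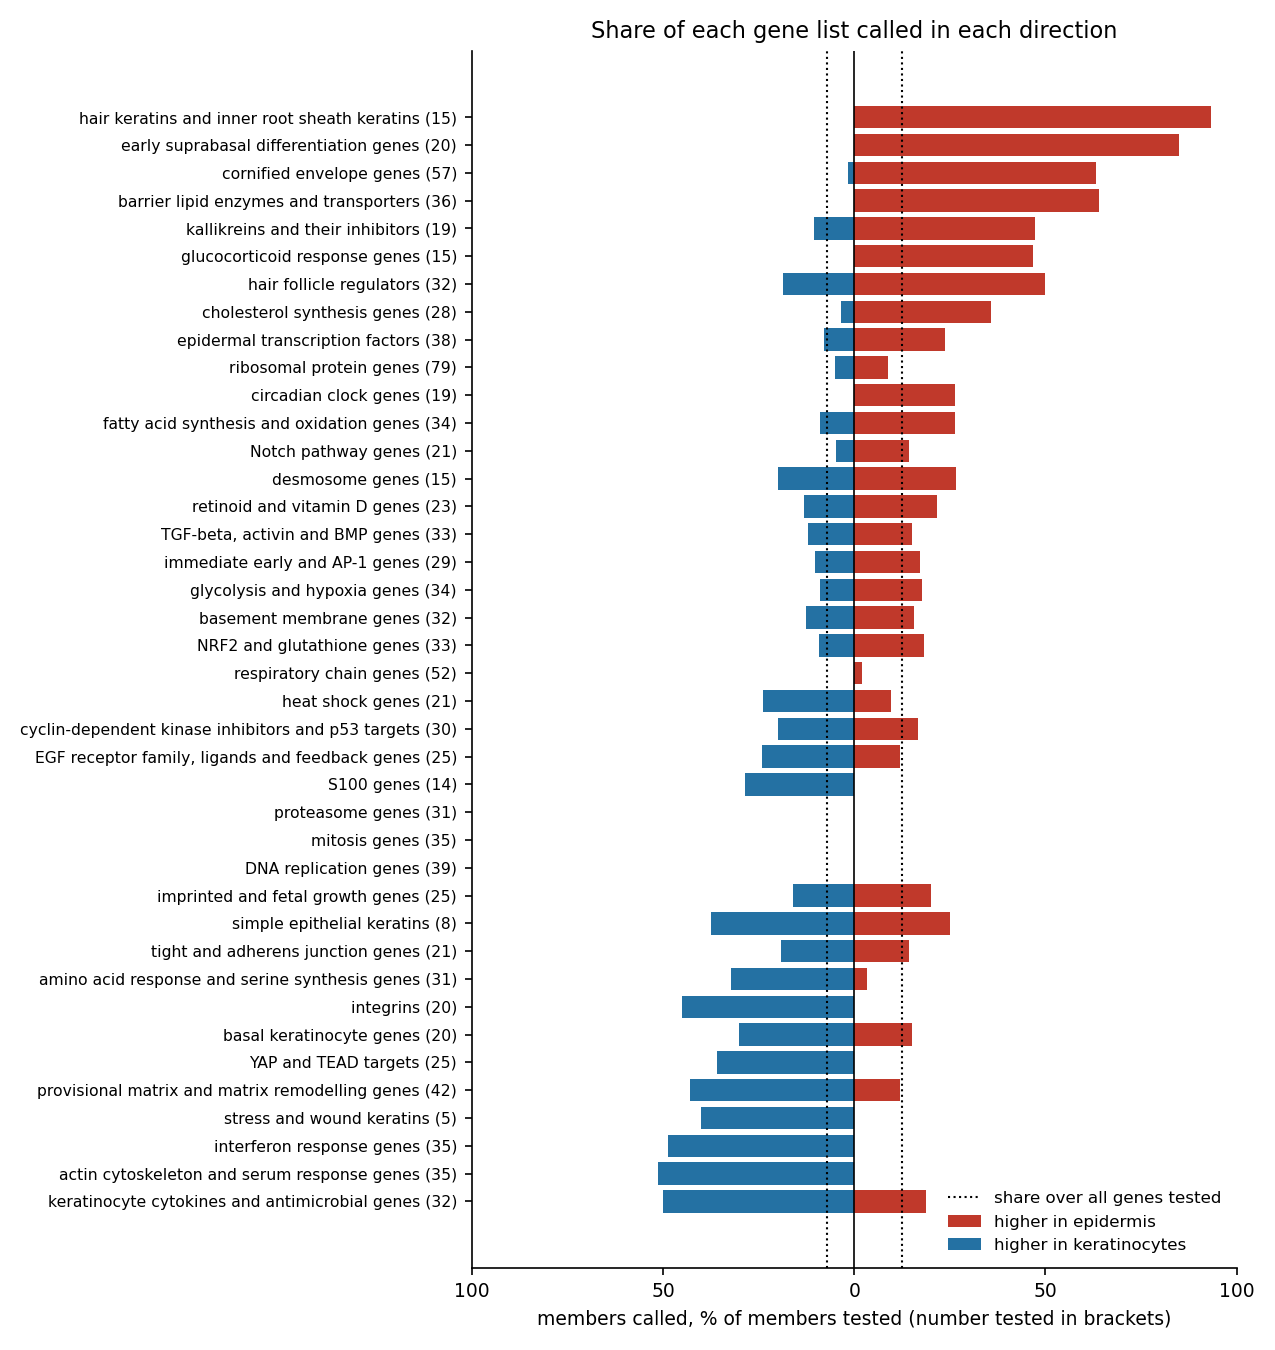
Share of the tested members of each gene list (vertical axis, number tested in brackets) called higher in epidermis (bars to the right) and higher in keratinocytes (bars to the left), in percent, with dotted lines at the shares over all genes tested, 12.4% and 7.06%. Hair keratins, early suprabasal and barrier genes reach far to the right, and actin, cytokine, interferon and integrin genes reach to the left.

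Cholesterol synthesis genes were called higher in epidermis in 10 of 28 and higher in culture in 1 (0 within the shared tag or without R2), with a median log2 fold change of 1.61, and the first number rested on which cultures were kept. It was 18 without R1, 6 without R2 or without R3, and 5 within the shared tag. Idi1, an isomerase in the middle of the pathway, was at 139.7, 105, 129 and 61.99 TPM in epidermis and 11.8, 2.44 and 2.04 TPM in culture (log2 fold change 5.04 ± 0.67, edgeR adjusted p = 3.5e-04), and Mvd, the step before, at 89.2, 49.3, 59.04 and 62.6 TPM in epidermis and 18.8, 8.29 and 9.602 TPM in culture (log2 fold change 3.03 ± 0.37). R1 was the highest culture for both, and for Sqle and Fdps, which did not pass (1.63 and 1.64) but did without R1 (2.18 and 2.49). In the fatty acid list 9 of 34 were called higher in epidermis and 3 higher in culture. Fabp5, the epidermal fatty acid carrier, was at 3031, 4035, 2711 and 5607 TPM in epidermis and 634, 789.9 and 482 TPM in culture (log2 fold change 3.21 ± 0.39). Plin2, which coats lipid droplets, was at 8.798, 17.7, 24.8 and 12.1 TPM in epidermis and 373, 501 and 536 TPM in culture (log2 fold change -4.25 ± 0.31).

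Glycolysis and hypoxia genes were called higher in epidermis in 6 of 34 and higher in culture in 3, and their median log2 fold change was 0.10, near that of all genes. Both counts lie not far from the shares over all genes tested, 12.4% and 7.06%. Enzymes such as Gapdh, Aldoa, Pkm and Ldha did not pass the limit, with values from -1.23 to -0.49. Gapdh and Pkm share 27% and 23% of their words with other genes. Slc2a3, a glucose carrier, was at 0.362, 0.213, 0.524 and 0.463 TPM in epidermis and 62.7, 45.3 and 37.3 TPM in culture (log2 fold change -6.18 ± 0.35, edgeR adjusted p = 4.9e-06). Egln3, a hypoxia-induced oxygen sensor, was at 77.4, 84.9, 83.1 and 259.5 TPM in epidermis and 3.94, 1.92 and 2.72 TPM in culture (log2 fold change 6.296 ± 0.72), with WT3 the highest. Car12, a carbonic anhydrase, was higher in epidermis too (4.44), and Adm, adrenomedullin, higher in culture (-3.23).

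NRF2 and glutathione genes were called higher in epidermis in 6 of 33 and higher in culture in 3 (median log2 fold change -0.05). Both counts lie not far from the shares over all genes tested, 12.4% and 7.06%. Nqo1, a quinone reductase and common NRF2 target, was higher in culture, at 1.13, 2.71, 2.71 and 1.34 TPM in epidermis and 61.8, 15.5 and 23.1 TPM in culture (log2 fold change -3.47 ± 0.503). Gsta1 and Gsta2 were each over 50 TPM in every epidermis library and at or under 1.28 TPM in every culture, and they share 93% and 61% of their words with near copies. Prdx1 and Gpx1 did not pass (-0.58 and 0.89). Genes of the amino acid response were called higher in culture in 10 of 31 and higher in epidermis in 1 (0 without EP07 or R1). Mthfd2, of mitochondrial folate metabolism, was at 4.597, 14.3, 7.92 and 4.01 TPM in epidermis and 109.6, 166 and 155 TPM in culture (log2 fold change -3.59 ± 0.37, edgeR adjusted p = 8.8e-05), and Asns, asparagine synthetase, at 46.5, 73.8, 35.00 and 27.2 TPM in epidermis and 249, 431 and 400.5 TPM in culture (log2 fold change -2.33 ± 0.303). Atf4, their activator, was at 263, 293, 239.6 and 171 TPM in epidermis and 495, 761 and 740.0 TPM in culture and did not pass.

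Heat shock genes were called higher in epidermis in 2 of 21 and higher in culture in 5 (2 without R1). The epidermis count lies near the share over all genes tested, 12.4%. Cryab, a small heat shock protein, was at 4.16, 2.87, 7.36 and 2.18 TPM in epidermis and 335, 375 and 324 TPM in culture (log2 fold change -6.28 ± 0.32, edgeR adjusted p = 3.3e-06), and Hsph1 at 6.596, 20.3, 12.3 and 14.1 TPM in epidermis and 198, 171 and 167 TPM in culture (log2 fold change -3.01 ± 0.32). Hspa1a and Hspa1b, the inducible HSP70 genes, were higher in epidermis (3.41 and 2.69), and these near copies share over 60% of their words. Hspb1 shares 52% of its words with other genes. Hsp90ab1 and Hspb1 were at 1385, 1566, 1338 and 1171 and at 1339, 1201, 1654 and 1910 TPM in epidermis, abundant in both systems, and did not pass (-0.26 and 0.46).

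No mitosis gene of 35 and no DNA replication gene of 39 was called in either direction by edgeR, or by DESeq2. At an unadjusted p under 0.05, 17 and 21 members differed; at the adjusted p alone, 16 mitosis genes were higher in culture and 0 in epidermis, and 15 replication genes were higher in culture and 1 in epidermis. Within the shared tag 2 mitosis and 7 replication genes were called higher in culture, and without EP08 2 replication genes were. Cdk1, the mitotic kinase, was at 19.4, 26.6, 18.9 and 13.2 TPM in epidermis and 103, 65.9 and 64.2 TPM in culture (log2 fold change -1.29 ± 0.21, edgeR adjusted p = 0.0011). Ube2c, which tags cyclins for destruction, was at 39.7, 61.9, 49.7 and 36.02 TPM in epidermis and 233, 149 and 135 TPM in culture (log2 fold change -1.37 ± 0.21). Both were higher in every culture than in every epidermis library. Top2a and Ccna2 differed by -0.58 and -0.46 and Pcna by 0.02. Pcna shares 23% of its words with other genes. Rrm2, a ribonucleotide reductase subunit, was at 29.4, 51.5, 24.5 and 21.8 TPM in epidermis and 240.4, 138 and 151 TPM in culture (log2 fold change -1.79 ± 0.28), and passed without EP08 (-2.05). For these 6 genes WT3 was the lowest epidermis library and EP08 the highest.

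Among inhibitors of cyclin-dependent kinases and p53 targets, 5 of 30 were called higher in epidermis and 6 higher in culture. The epidermis count lies not far from the share over all genes tested, 12.4%. Cdkn1a, p21, did not pass (395, 397, 284 and 384 TPM in epidermis and 816, 1110 and 996 TPM in culture; log2 fold change -0.802 ± 0.22, edgeR adjusted p = 0.013). Cdkn2b, p15, was at 21.7, 19.1, 31.5 and 33.1 TPM in epidermis and 7.07, 4.25 and 4.28 TPM in culture, with no overlap, and was called higher in epidermis. Plk2 was at 25.3, 31.7, 22.1 and 18.3 TPM in epidermis and 762, 578 and 629 TPM in culture (log2 fold change -4.04 ± 0.18), and the death receptor gene Tnfrsf10b at 2.24, 3.099, 2.49 and 1.596 TPM in epidermis and 53.4, 55.4 and 57.7 TPM in culture (log2 fold change -3.85 ± 0.17). Pmaip1, which promotes apoptosis, was also higher in culture (-3.54). Trp73, a relative of Trp63, was higher in epidermis, at 6.77, 17.9, 10.1 and 4.35 TPM in epidermis and 0.971, 1.13 and 0.933 TPM in culture (log2 fold change 3.802 ± 0.42), and Trp53 did not pass (-1.14).

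Imprinted and fetal growth genes were called higher in epidermis in 5 of 25 and higher in culture in 4, and in 9 within the shared tag and 7 without EP09. H19, an imprinted RNA, was at 2230, 2236, 2481 and 1176 TPM in epidermis and 259, 377 and 315 TPM in culture (log2 fold change 3.16 ± 0.25, edgeR adjusted p = 2.3e-05), and Igf2, its neighbour, at 213, 220.2, 177 and 130.1 TPM in epidermis and 17.8, 18.1 and 16.1 TPM in culture (log2 fold change 4.03 ± 0.19). Igf2r, the receptor that clears the Igf2 product, was at 8.43, 11.3, 9.56 and 7.49 TPM in epidermis and 78.98, 109 and 98.5 TPM in culture (log2 fold change -2.599 ± 0.16), and Mest at 0.335, 0.935, 1.15 and 0.443 TPM in epidermis and 21.5, 23.1 and 39.7 TPM in culture (log2 fold change -4.79 ± 0.404). Igfbp3, a binding protein of these growth factors, was also higher in culture (-3.397).

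Markers of other cell types were read as whole lists, since cells of other types could sit in either system. T cell markers were called higher in epidermis in 9 of 11 (5 of 10 within the shared tag), with summed TPM of 79.9 to 169.5 in epidermis and 39.2 to 60.7 in culture. Cd3g was at 8.404, 5.73, 36.8 and 10.5 TPM in epidermis and had 3 reads in culture, a ratio of 178 with a 95% exact counting interval of 60.6 to 864. Skint1, a keratinocyte gene needed for epidermal T cells, was kept in that list, and its call is among the 9. It was at 55.3, 44.01, 54.2 and 46.6 TPM in epidermis and 1.01, 2.01 and 0.614 TPM in culture. Skint1 held most of the list's sum in EP07, EP08 and WT3 (55.3 of 95.1 TPM in EP07). In EP09 it held 54.2 of 169.5 TPM. Langerhans cell markers were called higher in epidermis in 6 of 10 (3 within the shared tag) and higher in culture in 1, Mfge8. Their summed TPM went the other way, at 138.5 to 328.5 in epidermis and 361 to 593 in culture, most of it from Epcam and Mfge8, which keratinocytes express too, and the langerin gene Cd207 was at 0.0957 TPM on average in epidermis and 0 in every culture. H2-Aa and Cd74, which present antigen, were at 9.18, 12.7, 19.1 and 3.39 and at 32.9, 43.4, 71.3 and 11.5 TPM in epidermis and at or under 3.03 TPM in every culture. Macrophage and other myeloid markers were called higher in epidermis in 5 of 11, in 3 within the shared tag and in 8 without R1, with sums of 167 to 336 TPM in epidermis and 49.2 to 240.6 TPM in culture. The 1 called higher in culture, the lysozyme gene Lyz2, was not called within the shared tag or without EP08, EP09 or R1. C1qa, a complement chain, was at 45.2, 26.7, 63.2 and 50.4 TPM in epidermis and 12.4, 4.83 and 2.55 TPM in culture (log2 fold change 3.399 ± 0.56). All 4 red blood cell markers tested were called higher in epidermis, as were both that were still tested without EP07 or without EP09, with sums of 161 to 448 TPM in epidermis and 1.33 to 2.67 TPM in culture. Of the 8 listed markers in both tables, 4 passed the filter on low counts. Markers near 0 in culture can pass it only through epidermis, so the direction of these calls was not free. Hbb-b1, a globin gene, was at 71.3, 60.5, 148 and 66.4 TPM in epidermis with 1 read in culture. The part of these cells in the differences above was not tested.

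Melanocyte markers went the other way. They were called higher in culture in 6 of 15 and higher in epidermis in 0, with summed TPM of 100.2 to 304 in epidermis and 621 to 1972 in culture. In the p63beta libraries 1 of 15 was called higher in culture, and the median log2 fold change was -0.31 there against -1.41 here. Tyrp1, a pigment enzyme, was at 2.72, 9.62, 15.7 and 2.24 TPM in epidermis and 157, 349 and 476 TPM in culture (log2 fold change -4.796 ± 0.67, edgeR adjusted p = 4.6e-04), and Dct, another, at 57.1, 109, 106 and 42.6 TPM in epidermis and 130.3, 405 and 576 TPM in culture, not called (-1.58). R1 was the lowest culture for both. Merkel cell markers were called higher in epidermis in 1 of 9 and higher in culture in 0 (1 without R1 or R2), with sums of 37.8 to 73.6 TPM in epidermis and 10.1 to 31.4 TPM in culture. The 1, near the share over all genes tested (12.4%), was Chga, chromogranin A. Chga was at 43.7, 30.3, 62.4 and 46.2 TPM in epidermis and 0.466, 0.4900 and 0.4696 TPM in culture (log2 fold change 7.25 ± 0.37). It made up most of the sum in each epidermis library.

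Mesenchymal and muscle markers were divided by type. Fibroblast markers were called higher in epidermis in 6 of 20 (3 of 16 without EP09) and higher in culture in 3 (1 of 17 without WT3 and 1 of 19 within the shared tag), with sums of 282 to 406 TPM in epidermis and 134.5 to 211 TPM in culture. In the p63beta libraries 1 of 18 was called higher in epidermis. Dcn, decorin, was at 135, 152, 98.8 and 68.5 TPM in epidermis and 2.76, 1.84 and 1.86 TPM in culture (log2 fold change 6.21 ± 0.31), and Postn, periostin, at 172, 182, 164 and 180.0 TPM in epidermis and 2.398, 1.84 and 5.298 TPM in culture (log2 fold change 6.49 ± 0.42). Col1a1, the main fibroblast collagen chain, was at 1.596, 0.712, 4.71 and 1.14 TPM in epidermis and 12.2, 16.1 and 64.8 TPM in culture, highest in R3 (log2 fold change -3.21 ± 0.74). Pericyte and smooth muscle markers, which include Acta2 and Tagln from above, were called higher in culture in 7 of 9 (4 within the shared tag) and higher in epidermis in 0 (1 within the shared tag). Their sums were 32.4 to 46.8 TPM in epidermis and 1104 to 1464 TPM in culture, most of it in those 2 genes; Cspg4 did not pass (0.205). Endothelial markers were called higher in culture in 5 of 10 (3 without WT3) with sums of 3.17 to 8.38 TPM in epidermis and 23.9 to 68.3 TPM in culture. The 1 called higher in epidermis, Sox18, fell below the filter on low counts within the shared tag and without EP07, EP08 or EP09. Flt1, a receptor for VEGF, was at 0.00773, 0.0471, 0.0375 and 0.0755 TPM in epidermis and 50.03, 7.73 and 11.1 TPM in culture (log2 fold change -8.23 ± 0.87). Schwann cell and neuron markers were called higher in culture in 4 of 8 (2 without WT3), with sums of 83.4 to 126.8 TPM in epidermis and 341 to 425 TPM in culture.

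Heart muscle markers were called higher in culture in 17 of 20, with sums of 27.6 to 36.4 TPM in epidermis and 354 to 674 TPM in culture, and skeletal muscle markers in 7 of 10 (3 within the shared tag), with sums of 14.5 to 19.4 TPM in epidermis and 85.2 to 258 TPM in culture. Of the latter 1 was called higher in epidermis (2 without EP08, R1 or R3). The skeletal muscle list has 22 members, of which 10 passed the filter on low counts. Those near 0 in epidermis could pass only through culture. Myl7, an atrial myosin light chain, was at 4.03, 4.24, 9.44 and 19.6 TPM in epidermis and 233, 138 and 158 TPM in culture (log2 fold change -3.81 ± 0.61, edgeR adjusted p = 9.3e-04). Nppb, a natriuretic peptide, was at 0, 0.567, 0.376 and 0 TPM in epidermis and 159, 53.5 and 84.3 TPM in culture (log2 fold change -8.37 ± 0.78). Acta1, the skeletal actin, was at 0.252, 0.0439, 0.874 and 0.176 TPM in epidermis and 77.6, 13.1 and 139.5 TPM in culture (log2 fold change -7.25 ± 0.94), and Mb, myoglobin, at 0.745, 1.43, 0.0956 and 0.232 TPM in epidermis and 25.01, 17.5 and 45.4 TPM in culture (log2 fold change -5.24 ± 0.700). Myl2, of the ventricle, was at 32.97, 16.9 and 48.7 TPM in culture and had 1 read in epidermis. R3 was the highest culture for Acta1, Mb and Myl2, and R1 for Myl7 and Nppb. The part of these cells, or of such messages in keratinocytes, in the actin list above was not tested. Adipocyte markers gave 1 call in each direction among 3 tested, of which the one higher in epidermis was lost within the shared tag and the one higher in culture without WT3.

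**Figure D4:**
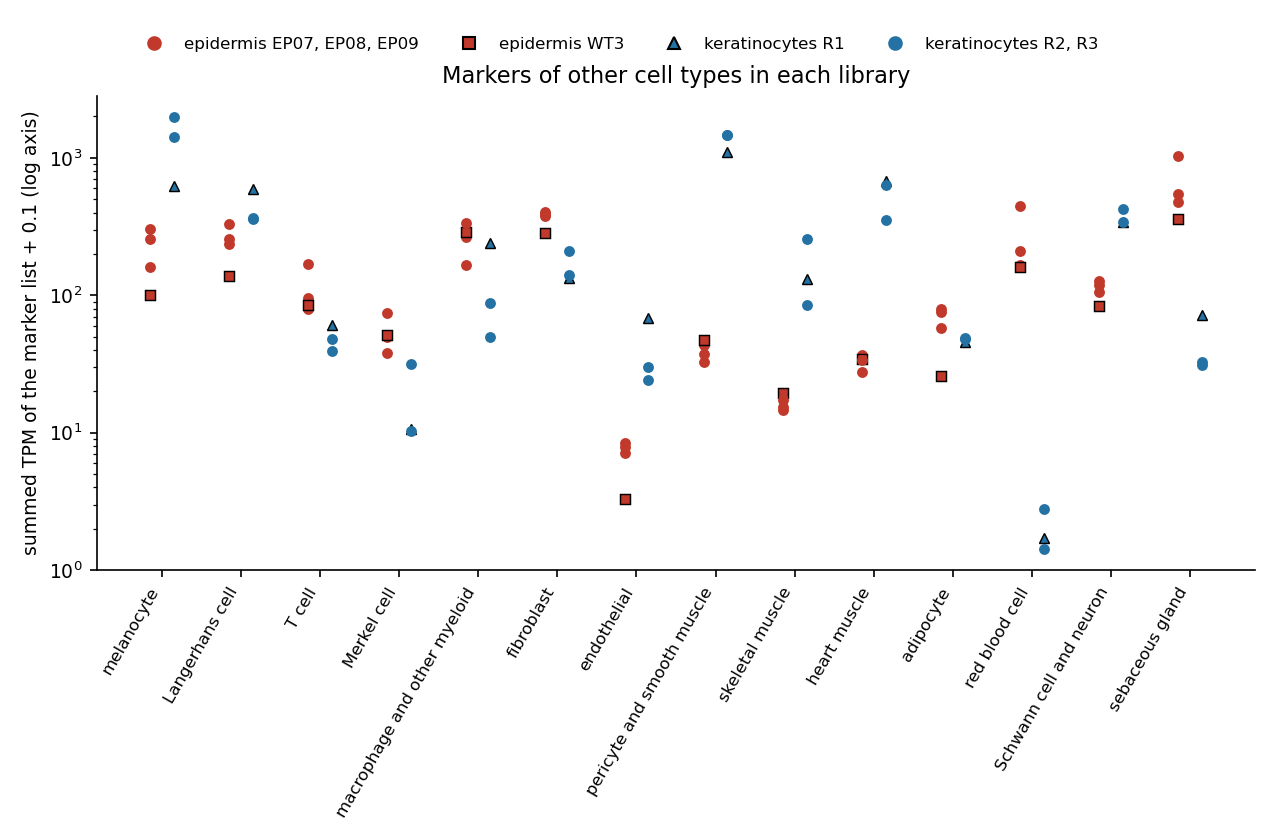
Summed TPM (vertical log axis) of the marker list of each other cell type (horizontal axis) in each library, coloured by system, with a square for WT3, a triangle for R1 and circles for the others. Red blood cell and sebaceous markers stand higher in all 4 epidermis libraries, and melanocyte, pericyte and heart muscle markers higher in all 3 cultures.

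Genes of the proteasome, the respiratory chain and the ribosome, machines that every cell uses, were also read. No proteasome gene of 31 was called by edgeR or DESeq2; 19 had an unadjusted p under 0.05, and at the adjusted p alone 15 were higher in culture and 1 in epidermis. Of 52 respiratory chain genes 1 was called, Ndufb4, at 308, 307, 254.7 and 333 TPM in epidermis and 38.5, 38.3 and 50.1 TPM in culture (log2 fold change 2.998 ± 0.23), and the median log2 fold change was -0.11. Ribosomal protein genes were called higher in epidermis in 7 of 79 (14 within the shared tag) and higher in culture in 4, with a median of 1.03, and 51 of them share sequence with pseudogenes or other copies. Rps27 was at 11.1, 8.32, 7.33 and 2.67 TPM in epidermis and 1004, 1209 and 1463 TPM in culture (log2 fold change -7.09 ± 0.39) and Rps28 at 3494, 2766, 4254 and 2612 TPM in epidermis and 168, 243 and 266 TPM in culture (log2 fold change 3.64 ± 0.24). Rps27 shares 28% of its words with other genes. Rpl30, with few shared words, was higher in culture too (-3.48). The main counts, 7 and 4 of 79, lie near the shares over all genes tested, 12.4% and 7.06%.

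The largest differences of all, among named genes with at least 20 TPM on the higher side and no overlap, included genes with no read in one system. A fold for such a gene is a lower bound, counted against a floor of 3 reads over the group. Skint9, a member of the Skint family of keratinocyte genes, was at 306, 222, 369.9 and 395 TPM in epidermis and at 0 in culture, at least 6049-fold higher. Serpinb3c, a serpin of stratified epithelium, was at 159, 84.4, 90.9 and 226 TPM, at least 3275-fold higher. Gadl1, a decarboxylase, was at 38.6, 22.8, 27.1 and 54.2 TPM, at least 1949-fold higher. Oas1f, of a family of RNA sensors, was at 86.1, 72.3, 51.9 and 136 TPM, at least 1776-fold higher. Skint10 was at 36.3, 33.5, 29.00 and 55.05 TPM, at least 936-fold higher. In all 5 the 4 epidermis libraries lay within 3-fold of each other. Cyp2g1, a cytochrome P450, was at 12.2, 8.82, 78.2 and 12.4 TPM, highest in EP09, at least 721-fold higher.

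On the culture side Ch25h, which makes 25-hydroxycholesterol, was at 116, 57.9 and 62.96 TPM and had 3 reads in epidermis, a ratio of 1792 with a 95% exact counting interval of 613 to 8694. Dio3, which inactivates thyroid hormone, was at 26.5, 41.8 and 36.4 TPM with 3 reads in epidermis, a ratio of 1125 (384 to 5458). Gprc5a, a membrane receptor induced by retinoic acid, was at 0.273, 0.817, 2.25 and 0.0486 TPM in epidermis and 895, 496 and 504 TPM in culture (log2 fold change -9.03 ± 0.84, edgeR adjusted p = 5.3e-05), and Dynap, a membrane protein, at 0.0446, 0.327, 0 and 0.0437 TPM in epidermis and 71.6, 67.1 and 68.2 TPM in culture (log2 fold change -8.69 ± 0.54). Together with Tagln, Inhba, Ptgs2 and Il24 these were messages that the cultures carried and that whole epidermis nearly lacked.

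Some of the largest differences fell on genes that share most of their sequence with others or are very short, and the part of the counting tools in them was not tested. Tmem254b and Tmem254c were at 125 and 95.9 TPM on average in epidermis and had no read in culture, and all of their words occur in other genes. Entpd4 and Srp54b, with 100% and 90% of their words shared, were also at 0 in culture. Amd1 was at 95.4, 86.1 and 85.1 TPM in culture and 0 in epidermis with 83% of its words shared, and it was not called in the p63beta libraries (log2 fold change -3.997). Small RNAs shorter than 200 bases, such as Snord96a and Mir196a-1, were at 0 in epidermis and made up 31 of the 981 calls. In all, 194 of the 1724 and 35 of the 981 called genes shared at least 20% of their words. Without such genes and small RNAs, 1530 and 922 genes were called.

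The comparison was repeated in the p63beta libraries, which share no library with the set above but carry the same mix of tools and tags and lack exon 13. Of 13901 genes tested there, 1636 (11.8%) were called higher in epidermis and 971 (6.99%) higher in keratinocytes. Of the 1724 genes called higher in p63alpha epidermis, 1634 were tested in this set, 1357 were called in the same direction and 0 in the other. Of the 981 called higher in p63alpha keratinocytes, 949 were tested, 755 were called in the same direction and 0 in the other. These are 78.7% and 77.0% of each list. Krt10 differed by 13.03 in this set, Krt15 by 8.53, Lor by 12.1, Tagln by -10.37 and Inhba by -8.22, each within 1 of its p63alpha value on the log2 scale. Genes that moved by more included Ptgs2 (-8.96 in p63alpha and -5.14 in p63beta), Dcn (6.21 and 2.44), Flt1 (-8.23 and -4.26) and Krt6b (2.38 and 6.48). Of 82 counts of list members called in 1 direction, 24 were over 1.5 times larger or smaller in the p63beta set. Among them were interferon genes higher in culture (17 of 35 and 8 of 32), amino acid response genes higher in culture (10 and 5 of 31) and NRF2 and glutathione genes higher in epidermis (6 of 33 and 2 of 32). These differences between the sets were not tested.

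**Figure D5:**
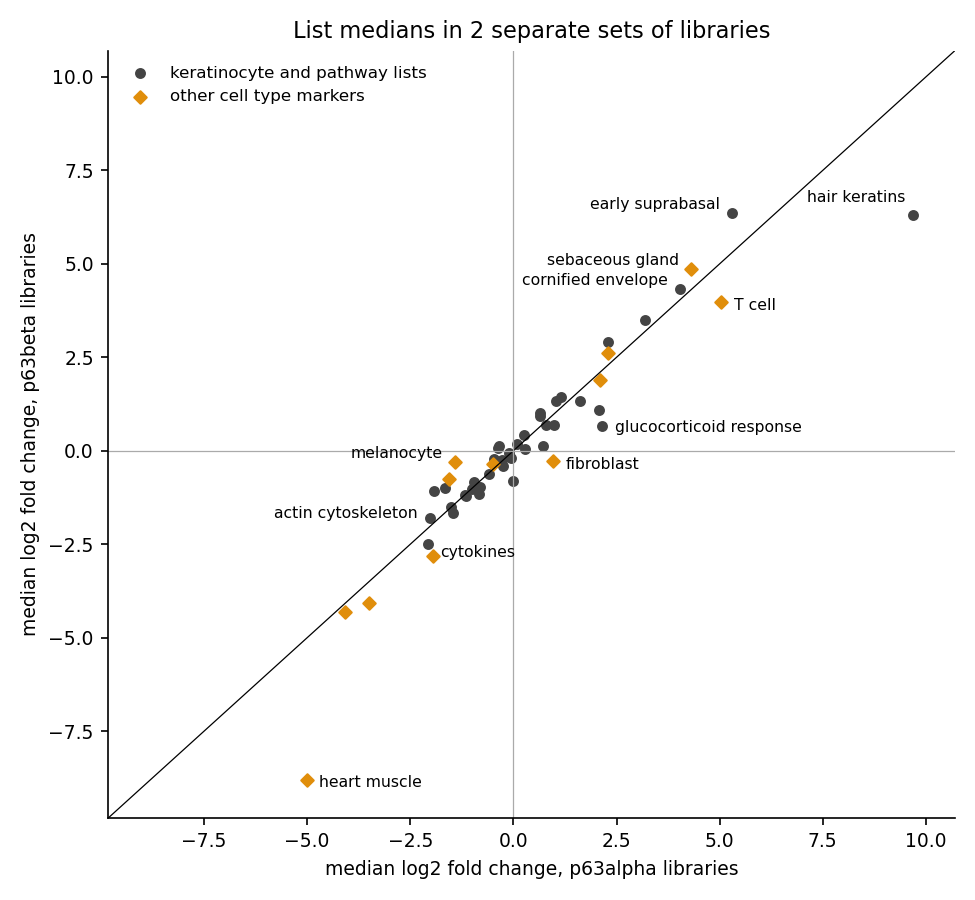
Median log2 fold change of each gene list in the p63alpha libraries (horizontal axis) and in the separate p63beta libraries (vertical axis), with diamonds for markers of other cell types. Early suprabasal genes lie at 5.30 and actin genes at -2.01 on the horizontal axis, while hair keratins lie off the diagonal, at 9.70 and 6.32.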

How the data were processed

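RNA from newborn mouse epidermis and from cultured keratinocytes was sequenced from TruSeq Stranded mRNA libraries, per the labels' protocols. For the keratinocytes the authors deposited whole-number counts per gene from featureCounts 1.5.2 (read pairs, reverse strand, reads mapping to several places left out) and FPKM, per the file headers. For the epidermis the authors deposited estimated counts and TPM per gene; the submitters' processing notes name STAR, Subread, Salmon, DESeq2 and mm10, with no versions for these. Epidermis columns were tied to the p63alpha or p63beta group by the WT or KO in their names, as the keratinocyte table pairs these words, and carry no replicate numbers; 14 other per-library columns were not used.

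Genes were joined by symbol (23089; 27179 in the keratinocyte table, 24411 in the epidermis table), leaving out 27 symbols turned into dates. Estimated counts were rounded. TPM were rescaled over shared genes; for keratinocytes they came from the deposited FPKM. The 7 p63alpha libraries were fitted in edgeR 4.0.16 (filterByExpr, TMM, robust quasi-likelihood; R 4.3.3) with Benjamini-Hochberg adjustment over all genes tested, and the p63beta libraries in a fit of their own. DESeq2 1.42.0, limma 3.58.1 on log2 TPM with pseudocounts of 1 and 0.1, other scalings, filters and fold limits, and leaving out each library were the alternatives. On counts simulated for the p63alpha comparison over 13652 genes, 44 of 50 genes changed 6-fold, 48 of 50 changed 8-fold and 49 of 50 changed 16-fold were called. The changed genes were drawn from those averaging over 50 reads, and all other genes were set equal between the systems. The real comparison has neither limit, so these rates do not carry over to it.

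Shared sequence is the percent of a gene's 31-base words found in another gene's transcripts, with 20% as the limit. The 54 lists, the members and the rules were chosen with earlier results of these data known. Named genes are Trp63, the 10 most abundant of each system, the 15 largest called differences each way and the 5 largest in rank, and of each list up to 6 by level and 3 called each way; Myl9 and Cd207 lie outside this rule. A few genes that the rule takes in are not reported here. Protein sequences were not used here.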

Additional observations from a re-analysis of the deposited data

Results flagged for a closer look

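For 23 of the 261 genes named, 1 of the 4 epidermis libraries lay apart. Its gap to the next, over the range of the 4, passed Dixon's 95% critical value. With normally distributed values about 1 gene in 20 would pass by chance, a rate that may not hold for TPM. Over all genes tested, 1004 (7.22%) passed. WT3 was the library set apart in 470 (331 times as the lowest) and EP09 in 295 (279 times as the highest).

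EP09 was the high library for hair and blood related genes among others: Krt71 (167 TPM), Krt27 (145 TPM), Cyp2g1 (78.2 TPM), Fkbp5 (157 TPM), Hbb-b1 (148 TPM) and Cd3g (36.8 TPM). It was also high for S100a7a (4.54 TPM), Pkp2 (0.702 TPM) and Dio3 (0.135 TPM), all near 0 in the others, and low for Klk7 (895 TPM), Cdkn1a (284 TPM) and Pou2f3 (126 TPM). WT3 was high for Lgals7 (11527 TPM), Dgat2 (537 TPM), Alox12b (391 TPM) and Egln3 (260 TPM), and low for Lfng (8.78 TPM), Timp3 (6.35 TPM) and Tmem254b (104 TPM). EP08 was high for Sostdc1 (104 TPM), Dynap (0.327 TPM) and Myl2 (0.124 TPM), and EP07 for Klf4 (1035 TPM). The 2 systems did not overlap in TPM for any of these genes but Klk7.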

How the results depend on the processing

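No paired analysis was possible because the epidermis columns carry no replicate numbers. Over the alternatives, the p63alpha comparison kept its total of 2705 calls within 1.5 times in DESeq2 (2707), with size factors (2711), without scaling beyond library totals (2683), joined by Entrez ID (2726), without a filter on low counts (3129) and without each library in turn (2487 to 2826; 1572 to 1900 higher in epidermis, 915 to 1044 higher in keratinocytes). The p63beta comparison gave 2391 to 2773 without each library (1459 to 1817 and 920 to 1009). A test against 4-fold itself left 1452 calls (982 and 470), and 1438 in p63beta (963 and 475). An 8-fold minimum left 1594 (1085 and 509), and 1553 in p63beta (1040 and 513). A 2-fold minimum gave 5093 (2873 and 2220), and 4883 in p63beta (2795 and 2088). With limma on log2 TPM, which is not recentred on the median of all genes, a pseudocount of 0.1 gave 1126 and 1594 calls, and 1 gave 714 of 1735 higher in epidermis; p63beta gave 1021 and 1887, and 660 higher in epidermis. Among list medians on the recentred TPM scale, glycolysis (-0.028), imprinted (0.35) and respiratory chain genes (0.042) changed sign, hair keratins fell to 6.44, and pericyte (-3.11), skeletal muscle (-2.25) and heart muscle markers (-3.71) moved towards 0; the cause was not tested. Over 4889 refits of the genes named and tested, 4791 kept the call or the lack of one, 74 lost a call and 24 gained one. Of those with a call in either fit, 0 reversed. A change of sign in a gene called in neither fit was not counted. For these refits the limma fold changes, and those without scaling, were recentred on the median of all genes. A gene with no read in a group was set at a floor of 3 reads over that group, to allow for what this depth could miss.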
